A study of Homo sapiens with 6 samples.

Results

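The genes described here are 42 DNA replication genes of the human genome, read in SW480, an established line of colorectal cancer cells. They were chosen by gene symbol, as a list covering origin licensing, the MCM helicase and its activation, polymerases, the sliding clamp, nucleotide supply and chromatin assembly. Each of the 42 symbols matched 1 of the 58735 genes in the deposited table. Of the 6 libraries, 3 came from cells given an siRNA against ITGB4, the gene of integrin β4, and 3 from cells given a negative control siRNA. All 6 carry the genotype label WT, and the siRNA is the only difference the labels record. The series calls the 3 libraries of each group biological replicates, all of 1 cell line. The siRNA sequence, the time after transfection and any further ITGB4 siRNA are not given in the labels.

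A cell copies its DNA from origins, where the origin recognition complex, CDC6 and CDT1 load the ring-shaped MCM helicase during G1 phase. CDC45 and the GINS complex activate the ring in S phase, and polymerases α, δ and ε then synthesise DNA with the help of the clamp PCNA and its loader RFC. Many of these genes are transcribed through E2F factors, which RB proteins hold back until cyclin-dependent kinases phosphorylate them, and their RNA is widely read as a sign of proliferation in tumours.

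Because the choice of genes used neither sequence nor position, their promoters were searched for words they share. RefSeq windows (GRCh38.p14) from 250 bases before to 50 bases after a transcript start were at hand for 36 of the 42 genes. The E2F word was searched on both strands as TTTCCCGC, TTTCGCGC, TTTGCCGC or TTTGGCGC, and matches on opposite strands may overlap. It was present for 18 of the 36 replication genes, against 6.95% of 8754 tested genes with a window (tested genes have a mean of at least 1 FPKM, a read density) and 3.99% of all 27305 genes with a window. The stretches that follow show the match nearest the start for those of the 18 genes whose values are given library by library below, with the word in capitals, 5′ to 3′ on the strand of the gene.
CDT1: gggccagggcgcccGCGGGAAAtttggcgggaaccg
MCM2: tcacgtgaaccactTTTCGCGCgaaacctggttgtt
MCM3: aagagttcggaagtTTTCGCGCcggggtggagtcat
MCM6: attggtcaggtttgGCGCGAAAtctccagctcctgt
MCM7: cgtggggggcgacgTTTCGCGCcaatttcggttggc
GINS2: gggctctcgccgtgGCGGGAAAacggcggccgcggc
GINS3: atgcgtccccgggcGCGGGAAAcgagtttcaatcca
POLA2: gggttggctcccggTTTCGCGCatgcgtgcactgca
PCNA: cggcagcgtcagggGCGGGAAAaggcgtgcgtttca
TYMS: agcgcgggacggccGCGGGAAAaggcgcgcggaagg
In these lines the word is read either directly or as its reverse complement, such as GCGGGAAA in CDT1, GINS2, PCNA and TYMS. MCM2, MCM3 and MCM7 carry the same word, TTTCGCGC, whose first base is at position 3, -4 and -9 from the start (position 1 is the first transcribed base). The printed stretches lie at chr16:88803740-88803775 (CDT1, plus strand), chr3:127598399-127598434 (MCM2, plus strand), chr6:52284725-52284760 (MCM3, minus strand), chr2:135876508-135876543 (MCM6, minus strand), chr7:100101385-100101420 (MCM7, minus strand), chr16:85688964-85688999 (GINS2, minus strand), chr16:58392452-58392487 (GINS3, plus strand), chr11:65261895-65261930 (POLA2, plus strand), chr20:5126660-5126695 (PCNA, minus strand) and chr18:657600-657635 (TYMS, plus strand). Of 25 matches in the 18 genes, 16 began within 60 bases of the start, and 5 genes held more than 1 match.

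The other words set the replication genes apart less. The CCAAT box (CCAAT) was in 61.1% of the 36 genes, against 42.9% of tested genes. The GC box (GGGCGG) was in 75.0%, against 79.3% of tested genes. The CHR word (TTTGAA), known from promoters of G2 and mitosis genes, was in 2.78%, against 13.2% of tested genes. Median GC content of the windows was 66.7% for the replication genes and 65.3% for tested genes. A match describes letters in these windows and shows no binding.

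**Figure D1:**
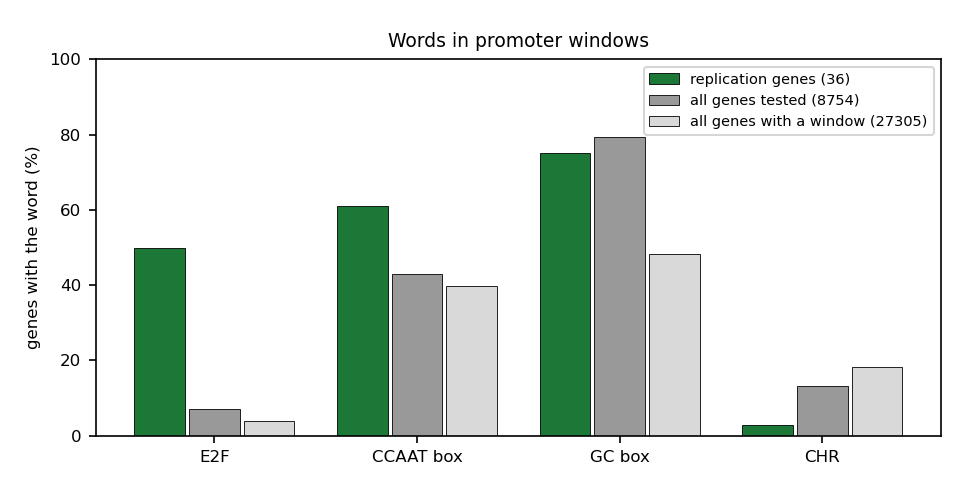
Share of genes (y axis, percent) whose promoter window holds each of 4 words (x axis), for 36 DNA replication genes, 8754 tested genes and 27305 genes with a window. The E2F word is the one with the widest gap, at 18 of 36 replication genes against 6.95% of tested genes.

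ITGB4 itself was measured first as a check of the labels. It had 41.1, 38.1 and 37.9 FPKM with ITGB4 siRNA, against 74.3, 63.8 and 69.8 FPKM with control siRNA, where FPKM counts fragments per kilobase of a gene, scaled to the size of the library. The groups did not overlap, and the mean was 43.7% lower with ITGB4 siRNA. On the log2(FPKM + 1) scale ITGB4 fell by 0.81 (SE 0.0658, limma adjusted p = 0.0148), although no exact permutation test of 3 against 3 libraries can give a p under 0.1. The call did not hold without ITGB4 siRNA replicate 1, 2 or 3 (limma adjusted p = 0.0709, 0.137 and 0.0968) or without control replicate 3 (0.0996), with the log2 fold change at -0.87 to -0.76 over the 6 fits that each leave out 1 library. With no filter on low values it did not hold either (limma adjusted p = 0.0618), nor with replicate number as a block (limma adjusted p = 0.0564). Libraries held 13715266 to 15496274 recovered reads. Of 8 epithelial markers 6 were measured above the filter of 1 FPKM, EPCAM among them at 97.7 FPKM with ITGB4 siRNA and 96.5 FPKM with control siRNA, and VIL1 and KRT20, markers of differentiated gut epithelium, were under it. Among fibroblast and endothelial markers, COL1A2, COL3A1, DCN, LUM, CDH5 and KDR were listed at 0 in all 6 libraries. FBLN1 and ESAM passed the filter, at 1.09 and 0.956 FPKM with ITGB4 siRNA and 1.21 and 1.05 FPKM with control siRNA. COL1A1, PDGFRB, PECAM1 and VWF were above 0 but under 1 FPKM in every library. The summed leukocyte list was at most 3.45 FPKM with ITGB4 siRNA and 3.63 FPKM with control siRNA, mostly from CD74.

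Control replicates 1 and 2 stand apart from each other among the replication genes, along the GC content of the transcript. Deviation of a library from the mean of the 6 correlated with GC over the 42 genes with r = 0.78 in control replicate 1 and r = -0.87 in control replicate 2. The other libraries lay between, at 0.44, -0.34 and -0.28 in ITGB4 siRNA replicates 1, 2 and 3 and -0.11 in control replicate 3. These values are descriptions over 42 genes of the same libraries, and the 6 deviations of a gene sum to 0. Over 12866 tested genes the correlations had the same signs and were smaller in size, with r = 0.45 in control replicate 1 and -0.42 in control replicate 2. A correlation also shrinks with the scatter of single genes, and slopes were not compared. The median coefficient of variation over the 6 libraries was 8.27% for all tested genes and 5.54% for the 42 genes. Of the 16 replication genes with at least 50% GC, 14 were above their mean in control replicate 1 and 15 below it in control replicate 2. Of the 26 with less GC, 20 were below their mean in control replicate 1 and 25 above it in control replicate 2. The lowest or highest library was one of this pair for 35 of the 42 genes. The same count was not made over all tested genes, and any pair among 6 libraries often holds an extreme. The fold change between the groups showed no such relation, with r = -0.04 over the 42 genes. With the GC trend removed within each library, an alternative chosen after seeing the data, 0 of the 42 genes were called between the groups (lowest limma adjusted p = 0.352).

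**Figure D2:**
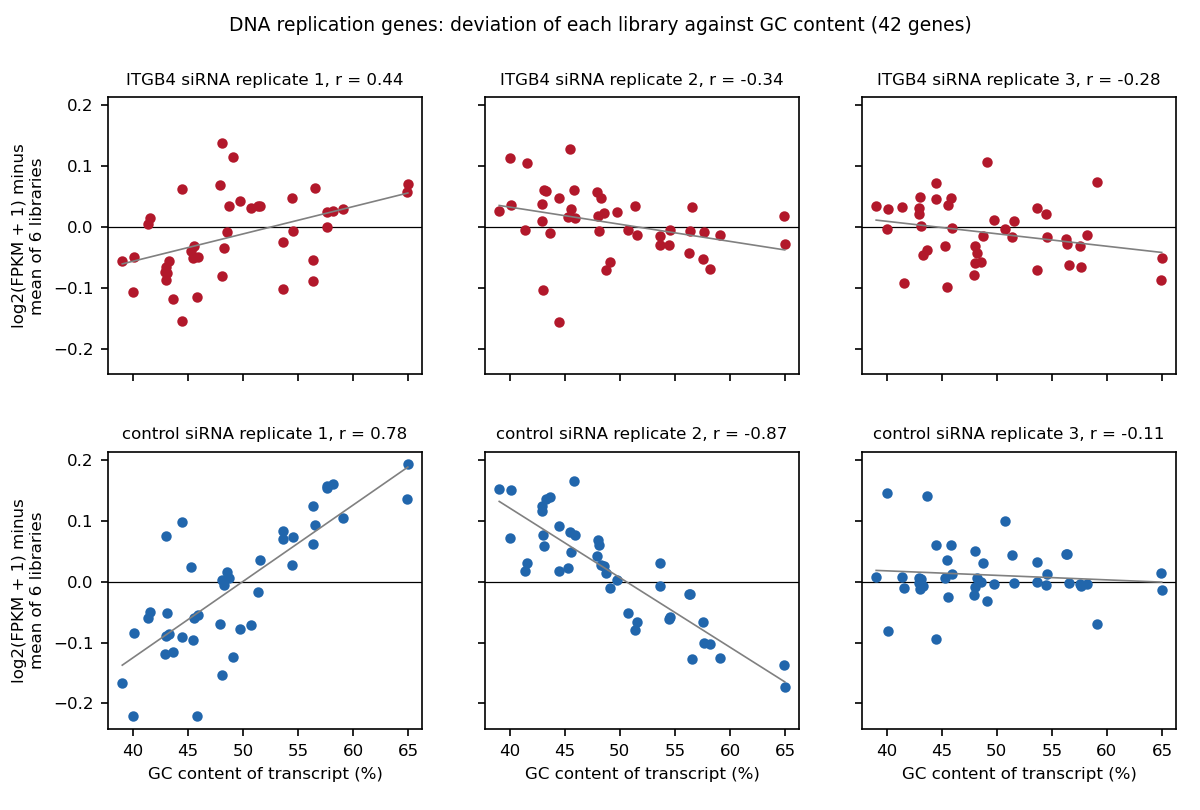
Deviation of log2(FPKM + 1) from the mean of 6 libraries (y axis) against GC content of the transcript in percent (x axis), 1 panel per library and 1 point per gene (42 genes), with a straight-line fit. Control replicates 1 and 2 slope in opposite directions (r = 0.78 and -0.87).

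Across the 42 genes the RNA level with ITGB4 siRNA stayed close to that with control siRNA. None passed the test at a limma adjusted p under 0.05, where 6 of 12871 tested genes did (0.0466%). No gene reached an unadjusted limma p under 0.05, against 5.83% of tested genes, and the smallest adjusted p was 0.945, for LIG1. The log2 fold change was above 0 for 16 genes and below 0 for 26, against 48.5% above and 51.5% below 0 over all tested genes. Its median was -0.01, against a median of -0.00 over all tested genes, and it ran from -0.11 (POLE2) to 0.11 (GINS2). Bulk RNA cannot tell a change in the share of cells in S phase, in either direction, from a change in RNA per cell.

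How far a change could have gone unseen is given by the intervals. The 95% interval lay between 20% lower and 25% higher for 42 of 42 genes, against 67.8% of tested genes. With a filter at a mean of 5 FPKM the share of tested genes was 85.1%, and all 39 replication genes that passed it lay within these limits. The outer bounds over the 42 genes were 0.803-fold and 1.21-fold. These bounds are on the FPKM + 1 scale, which narrows them for low genes. With limma-voom on recovered reads the bounds reached 0.760-fold for POLE2 and 1.27-fold for GINS3, the 2 of 42 genes then outside those limits. With a pseudocount of 0.1 the upper bound of GINS3 was 1.29-fold. All 42 genes had a mean of at least 1 FPKM, with at least 155 reads in every library, and the coefficient of variation over the 6 libraries was 1.93% (PCNA) to 10.3% (PRIM1). Together the 42 genes took 0.641%, 0.645% and 0.641% of reads with ITGB4 siRNA, against 0.655%, 0.644% and 0.648% with control siRNA. ITGB4 siRNA replicate 2 exceeded control replicate 2, so the shares overlap. The summed FPKM of the 42 genes, which divides reads by gene length, was 1605, 1632 and 1615 with ITGB4 siRNA, against 1657, 1635 and 1637 with control siRNA. On that scale the groups do not overlap, by a narrow gap between ITGB4 siRNA replicate 2 and control replicate 2. Among the lists described below, further replication factors were also apart, at most 813 FPKM with ITGB4 siRNA and at least 815 FPKM with control siRNA. Genes of E2F, RB and S-phase control were apart too, at most 1039 and at least 1085 FPKM. Of that sum CCND1 alone held on average 494.6 FPKM with ITGB4 siRNA and 544.2 FPKM with control siRNA. How often sums of other gene lists are apart was not counted. Sums of G2 and mitosis genes and of checkpoint genes overlapped.

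**Figure D3:**
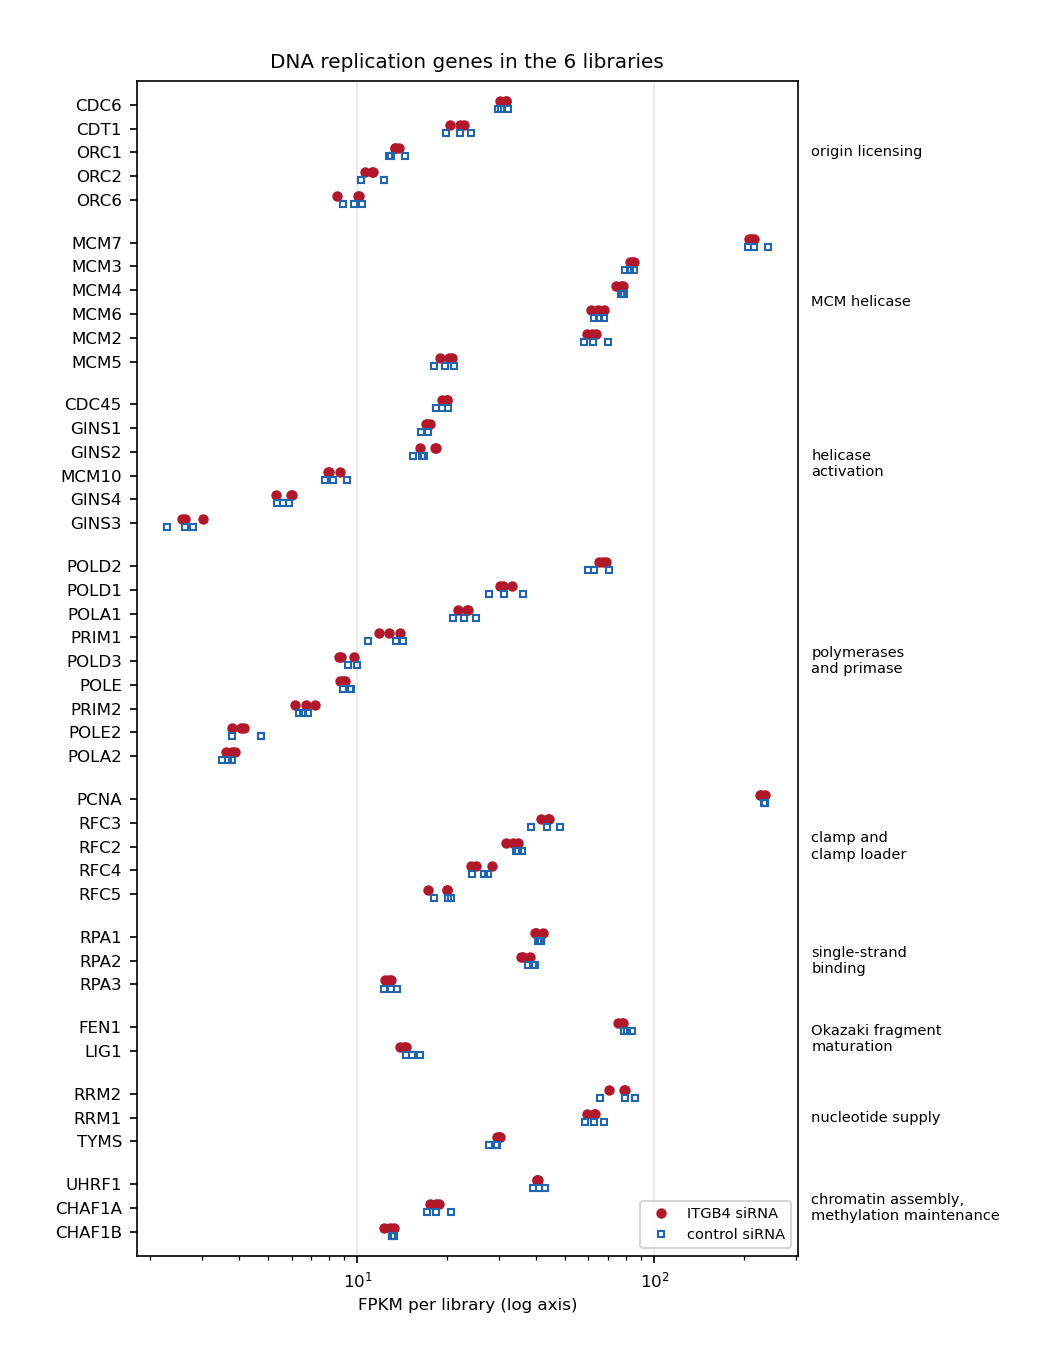
FPKM in each library (x axis, log scale) for the 42 genes (y axis), grouped by role, with ITGB4 siRNA as filled circles above control siRNA as open squares. PCNA and MCM7 are the highest genes and GINS3 and POLA2 the lowest, and the symbols of the 2 groups lie on top of each other for most genes.

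Origin licensing genes had log2 fold changes between -0.01 and 0.02. ORC1, ORC2 and ORC6, subunits of the origin recognition complex, were at 0.02, 0.01 and -0.01. CDC6, the ATPase that helps load the MCM ring, averaged 31.2 ± 0.815 FPKM with ITGB4 siRNA and 30.7 ± 1.22 FPKM with control siRNA (SD, n = 3 each). CDT1, its loading partner, had 22.9, 22.2 and 20.6 FPKM with ITGB4 siRNA, against 24.2, 19.9 and 22.1 FPKM with control siRNA, and its log2 fold change was -0.01 (95% interval -0.19 to 0.18). Both control extremes of CDT1 lie outside the ITGB4 siRNA values.

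The MCM2 to MCM7 subunits form the helicase ring, and 2 of them were above 0 and 4 below. MCM7 had 216.9, 209.0 and 212.3 FPKM with ITGB4 siRNA, against 241.3, 207.1 and 216.2 FPKM with control siRNA. MCM2 had 63.6, 59.5 and 61.9 FPKM with ITGB4 siRNA, against 69.9, 58.1 and 62.3 FPKM with control siRNA. In both, control replicate 1 was the highest library and control replicate 2 the lowest. MCM3 had 85.3, 82.5 and 83.9 FPKM with ITGB4 siRNA, against 85.4, 79.5 and 83.1 FPKM with control siRNA. MCM5 had 20.8, 20.3 and 19.0 FPKM with ITGB4 siRNA, against 21.2, 18.1 and 19.8 FPKM with control siRNA. Here too control replicate 1 was the highest library and control replicate 2 the lowest. MCM4 had 77.1, 78.7 and 74.4 FPKM with ITGB4 siRNA, against 78.4, 78.9 and 77.4 FPKM with control siRNA. MCM6 had 61.4, 67.6 and 64.8 FPKM with ITGB4 siRNA, against 62.5, 67.4 and 65.0 FPKM with control siRNA. The groups overlapped for all 6 subunits, whose log2 fold changes ran from -0.06 (MCM7, 95% interval -0.20 to 0.09) to 0.02.

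The ring holds 1 copy of each subunit, but their RNA levels differed widely and in nearly the same order in every library. MCM7 was highest, then MCM3 and MCM4, and MCM5 lowest in all 6 libraries. At the authors' gene length MCM2 exceeded MCM6 in replicate 1 of both groups, and MCM6 exceeded MCM2 in the other 4 libraries. At that length this pair does not differ beyond its spread. The ratio of MCM7 to MCM5 depends on the length used for scaling. It was 10.9 with the length the authors used and 7.81 with the APPRIS principal transcript of GENCODE 29, for which MCM5 has 3534 bases against the authors' 7338. With the principal length MCM4, at 128.0 on the FPKM scale with ITGB4 siRNA and 130.4 with control siRNA, moved above MCM3, at 95.5 with ITGB4 siRNA and 94.1 with control siRNA. MCM2 then averaged 83.4 with ITGB4 siRNA and 85.8 with control siRNA, above MCM6 at 71.2 and 71.6. MCM7 overlaps AP4M1, and strandedness is not in the labels, so reads of the 2 genes cannot be told apart there.

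**Figure D4:**
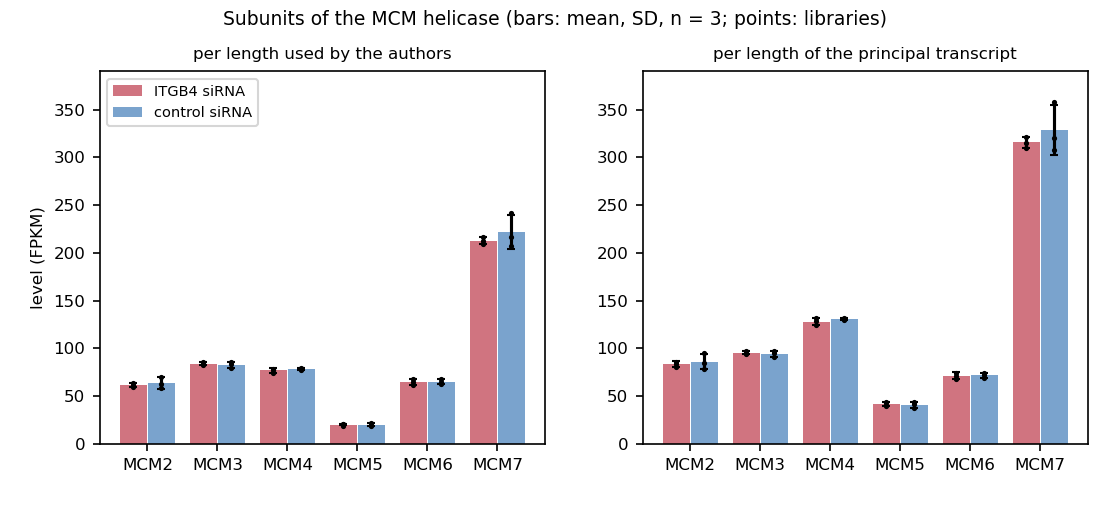
Level of MCM2 to MCM7 on the FPKM scale (y axis), per gene length used by the authors (left) and per principal transcript (right), with bars for the mean of ITGB4 siRNA (left bar) and control siRNA (right bar), SD (n = 3) and points for libraries. MCM7 is highest and MCM5 lowest in both panels, and MCM4 passes MCM3 only in the right one.

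Of the genes that activate the helicase, 5 of 6 were above 0. GINS2, a GINS subunit, had 18.4, 16.2 and 18.3 FPKM with ITGB4 siRNA, against 15.4, 16.8 and 16.5 FPKM with control siRNA. ITGB4 siRNA replicate 2 lay among the controls, and the log2 fold change was 0.11 (95% interval -0.04 to 0.26, limma adjusted p = 0.976). GINS3, the lowest of the 42 genes with the authors' gene length, had 3.01, 2.63 and 2.57 FPKM with ITGB4 siRNA, against 2.28, 2.80 and 2.62 FPKM with control siRNA. With the principal transcript POLA2 was lower, at 5.72 with ITGB4 siRNA and 5.59 with control siRNA, against 6.14 and 5.76 for GINS3. CDC45, which joins MCM and GINS in the helicase, had a log2 fold change of 0.03, as did GINS4, while GINS1 had 0.02 and MCM10, an initiation factor, -0.03.

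The polymerase and primase genes split into 4 above 0 and 5 below. POLA2, a subunit of polymerase α, had 3.86, 3.60 and 3.77 FPKM with ITGB4 siRNA, against 3.79, 3.50 and 3.68 FPKM with control siRNA. POLE2, a subunit of polymerase ε, averaged 4.00 ± 0.196 FPKM with ITGB4 siRNA and 4.42 ± 0.538 FPKM with control siRNA (SD, n = 3 each), a log2 fold change of -0.11 (95% interval -0.32 to 0.10). POLD1, the catalytic subunit of polymerase δ, had 33.1, 30.9 and 30.3 FPKM with ITGB4 siRNA, against 36.1, 27.8 and 31.2 FPKM with control siRNA. The groups of all 3 overlap, and POLD1, the gene with the highest GC content, spans its full range within the controls. POLA1, the catalytic subunit of polymerase α, and PRIM1 and PRIM2, the primase subunits that lay down RNA primers, had log2 fold changes of -0.00, 0.00 and 0.02. POLE, the catalytic subunit of polymerase ε, was at -0.06, and the polymerase δ subunits POLD2 and POLD3 were at 0.06 and -0.09.

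PCNA is the clamp that holds polymerases on DNA. It was the highest of the 42 genes with the authors' gene length. With the principal transcript MCM7 was higher, at 315.5 with ITGB4 siRNA and 328.6 with control siRNA, against 249.0 and 255.3 for PCNA. PCNA had 226.7, 235.6 and 227.9 FPKM with ITGB4 siRNA, against 236.8, 236.7 and 234.0 FPKM with control siRNA. ITGB4 siRNA replicate 2 lies within the controls and the other 2 below them. The log2 fold change was -0.04 (95% interval -0.12 to 0.05, limma adjusted p = 0.998; exact permutation p = 0.2). The clamp loader genes RFC2 to RFC5 had log2 fold changes of -0.07, 0.00, -0.01 and -0.04. RPA1, RPA2 and RPA3, which coat single-stranded DNA, were at -0.02, -0.08 and -0.02, and RPA2 averaged 36.6 ± 1.36 FPKM with ITGB4 siRNA and 38.7 ± 0.93 FPKM with control siRNA (SD, n = 3 each).

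FEN1 (chr11:61792637-61797244, plus strand) and TYMS (chr18:657604-673578, plus strand; GRCh38 positions from the deposited table) were the 2 genes whose groups did not overlap, against 11.1% of tested genes (5.75% higher and 5.36% lower). FEN1, the nuclease that trims Okazaki fragments, had 77.8, 78.4 and 75.3 FPKM with ITGB4 siRNA, against 83.9, 78.8 and 81.0 FPKM with control siRNA. All 3 ITGB4 siRNA libraries lay below all controls, by a narrow gap. Its log2 fold change was -0.07 (SE 0.0417, 95% interval -0.17 to 0.03, limma adjusted p = 0.971; exact permutation p = 0.1, the smallest possible). TYMS, the enzyme that makes thymidylate, had 30.3, 29.9 and 29.6 FPKM with ITGB4 siRNA, against 27.8, 29.4 and 29.3 FPKM with control siRNA. All 3 ITGB4 siRNA libraries lay above all controls, with a log2 fold change of 0.05 (SE 0.0428, limma adjusted p = 0.998; exact permutation p = 0.1). In TPM, which rescales each library to 1 total, the groups of 0 of the 42 genes were apart. TYMS overlaps ENOSF1 on the opposite strand, which averaged 4.35 ± 0.0935 FPKM with ITGB4 siRNA and 4.39 ± 0.227 FPKM with control siRNA (SD, n = 3 each). FEN1 overlaps TMEM258 and FADS2, and TMEM258 averaged 17.2 ± 0.780 FPKM with ITGB4 siRNA and 15.9 ± 0.305 FPKM with control siRNA (SD, n = 3 each). LIG1, the ligase that joins the fragments, averaged 14.3 ± 0.373 FPKM with ITGB4 siRNA and 15.4 ± 0.826 FPKM with control siRNA (SD, n = 3 each), with overlapping groups.

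**Figure D5:**
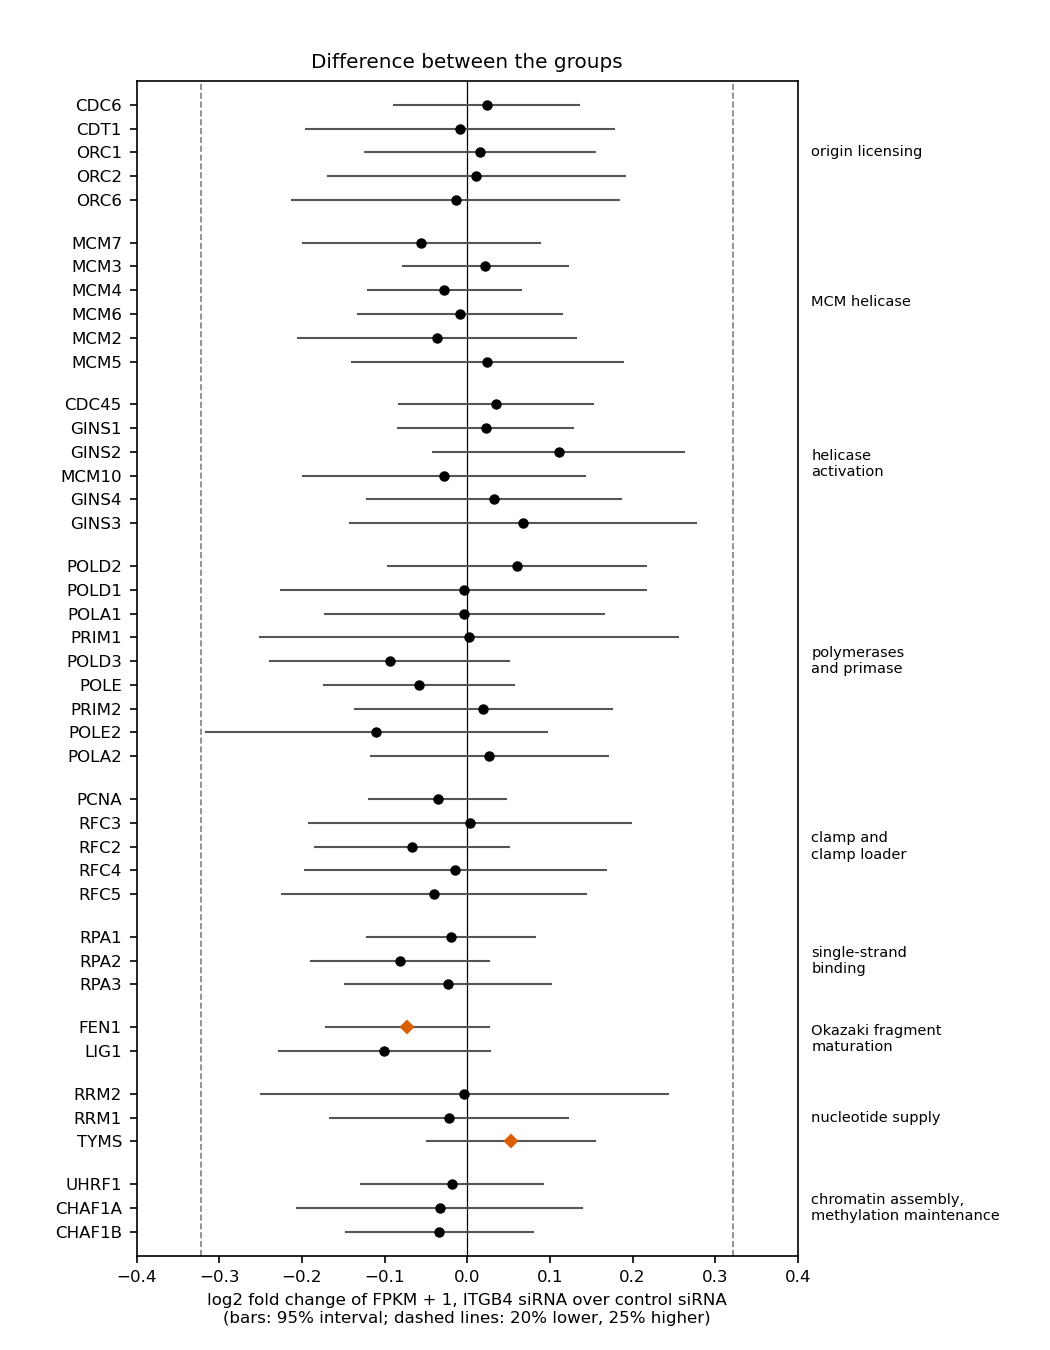
log2 fold change of FPKM + 1, ITGB4 siRNA over control siRNA (x axis), with 95% intervals for the 42 genes (y axis), dashed lines at 20% lower and 25% higher, and diamonds for FEN1 and TYMS, whose groups do not overlap. Every interval includes 0 and lies within the dashed lines.

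Ribonucleotide reductase makes deoxyribonucleotides from its subunits RRM1 and RRM2. RRM2 had 70.6, 79.9 and 79.2 FPKM with ITGB4 siRNA, against 65.5, 85.9 and 79.8 FPKM with control siRNA. RRM1 had 59.4, 62.6 and 63.1 FPKM with ITGB4 siRNA, against 58.4, 67.4 and 62.4 FPKM with control siRNA. For both, replicate 1 was the lowest library of its group. CHAF1A and CHAF1B, which place histones on new DNA, and UHRF1, which reads hemimethylated DNA, had log2 fold changes of -0.03, -0.03 and -0.02.

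Lists around replication were read in the same way, and 0 genes of any were called. Genes named from these lists were picked for the smallest limma p of their list in this same comparison, so they are not typical members. Of 37 tested further replication factors, 13 were above and 24 below 0 (median -0.03), and DSCC1, part of a cohesion clamp loader, averaged 11.9 ± 0.886 FPKM with ITGB4 siRNA and 14.02 ± 0.833 FPKM with control siRNA (SD, n = 3 each; limma adjusted p = 0.729). Of 28 genes of E2F, RB and S-phase control, 7 were above and 21 below 0 (median -0.06). CDK6, a kinase that phosphorylates RB, averaged 9.06 ± 0.276 FPKM with ITGB4 siRNA and 7.63 ± 0.505 FPKM with control siRNA (SD, n = 3 each; limma adjusted p = 0.608). CCND1, its cyclin D1 partner, averaged 494.6 ± 5.97 FPKM with ITGB4 siRNA and 544.2 ± 22.2 FPKM with control siRNA (SD, n = 3 each; limma adjusted p = 0.687). The 14 genes of G2 and mitosis had a median of -0.01, with 5 above and 9 below 0, and the 11 checkpoint genes -0.03, with 3 above and 8 below. ETAA1, an activator of the checkpoint kinase ATR, averaged 2.92 ± 0.142 FPKM with ITGB4 siRNA and 2.45 ± 0.0591 FPKM with control siRNA (SD, n = 3 each; limma adjusted p = 0.812). By promoter word, the median log2 fold change was -0.01 for the 18 genes with the E2F word and -0.01 for those without.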

How the data were processed

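The deposited values are FPKM, computed by the authors per gene from poly-T captured RNA (per the labels' protocols), on GRCh38 (per the submitters' processing notes). Those notes name DESeq2 and edgeR without a role, and the aligner and counter are not given in the sources used here. The authors also deposited a mean FPKM per group and a gene length in bases. Reads were recovered from FPKM, gene length and the FPKM step that 1 read makes in each library, which gave whole reads for 100% of values at a tolerance of 0.01. Depth was 13715266 to 15496274 reads per library. Counting error alone, from the mean reads of a replication gene, gave a coefficient of variation of 0.839% to 7.33%, above the one observed over the 6 libraries for 6 of the 42 genes.

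Groups came from sample titles. For the 12871 genes averaging 1 FPKM or more, limma-trend (limma 3.58.1, R 4.3.3) was run on log2(FPKM + 1) with no replicate term, two-sided, with Benjamini-Hochberg adjustment over all genes tested and a threshold of 0.05. The exact permutation test of mean FPKM is two-sided. Although FPKM is not a count, limma-voom with TMM scaling was run on the recovered reads as an alternative, beside another pseudocount (0.1), other filters, TPM, median-of-ratios scaling, a replicate block and leaving out each library. GC content and principal transcripts came from GENCODE 29, which holds the same start and end for all 58735 genes, and promoters from RefSeq. Values of every library are given for PCNA, MCM2 to MCM7, RRM1, RRM2, TYMS, genes whose groups do not overlap, and the 2 highest and 2 lowest genes. CDT1, POLD1 and GINS2 were added to these after their values were seen, as were POLE2, LIG1 and RPA2, given as mean and SD. CDC6, also given as mean and SD, was not among the genes chosen beforehand either. The members and lists were chosen with earlier results of these data known. p-values measure the spread between these libraries.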

Additional observations from a re-analysis of the deposited data

How the results depend on the processing

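In every alternative 0 of the 42 replication genes were called (lowest limma adjusted p = 0.352). Genes called among all tested numbered 6, against 0 with no filter, 0 with the replicate block, 28 with limma-voom (5 shared with the 6), 47 with the GC trend removed (an alternative chosen after seeing the data) and 0 to 7 without 1 library. ITGB4 stayed at -0.81 but missed the threshold with no filter (limma adjusted p = 0.0618) and with the replicate block (limma adjusted p = 0.0564), and was -0.87 to -0.76 without 1 library. Replicate numbers were not taken to pair the libraries, as the labels do not say that they do. Deviations of same-numbered libraries correlated at 0.173, 0.102 and -0.01, against -0.174 to 0.0862 for differently numbered ones. These values do not settle whether the libraries are paired. With the replicate block 8.27% of tested genes reached an unadjusted limma p under 0.05, against 5.83% without it. Replication genes at an unadjusted p under 0.05 numbered 0, against 3 with the GC trend removed and 0 to 2 without 1 library. Those with groups apart numbered 2, against 0 in TPM and 3 to 8 without 1 library, where fewer libraries are compared. The 95% interval lay between 20% lower and 25% higher for 42 of 42 genes, against 40 with a pseudocount of 0.1, 40 in TPM, 40 with limma-voom, 41 with no filter, 41 with the replicate block and 38 to 41 without 1 library. The share of tested genes within these limits was 67.8%, against 53.9% with a pseudocount of 0.1, 56.0% in TPM and 58.2% with limma-voom. It was 60.5% with no filter, 70.6% with the replicate block and 53.9% to 62.7% without 1 library.

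Of 585 single-gene comparisons, 50 turned sign, all in 24 genes within 0.0555 of 0. In TPM POLD1 was 0.00032, POLA1 0.0012 and RRM2 0.0013, and with the GC trend removed POLD1 was 0.0060 and CDT1 0.0016. Without 1 library the log2 fold changes ran over CDC6 -0.00055 to 0.054, CDT1 -0.079 to 0.057, CHAF1A -0.092 to 0.037, GINS1 -0.0017 to 0.037, MCM10 -0.079 to 0.032, MCM2 -0.097 to 0.034, MCM3 -0.0057 to 0.045, MCM5 -0.033 to 0.077, MCM6 -0.042 to 0.027, MCM7 -0.10 to 0.0075, ORC1 -0.016 to 0.069, ORC2 -0.029 to 0.088, ORC6 -0.065 to 0.061, POLA1 -0.063 to 0.058, POLD1 -0.092 to 0.091, PRIM1 -0.11 to 0.076, PRIM2 -0.028 to 0.070, RFC3 -0.079 to 0.081, RFC4 -0.082 to 0.032, RFC5 -0.096 to 0.027, RPA3 -0.057 to 0.0095, RRM1 -0.072 to 0.031, RRM2 -0.11 to 0.078 and UHRF1 -0.052 to 0.014. The cause was not tested.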

Other observations

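Removing the trend with GC content within each library, an alternative chosen after seeing the data, lowered the median standard error of the 42 replication genes to 0.0393, against 0.0608 without it. Over all tested genes the median was 0.0627 with the trend removed and 0.0813 without it. FEN1 then stood at -0.08 on the log2 scale (limma adjusted p = 0.352), LIG1 -0.10 (limma adjusted p = 0.386) and RPA2 -0.08 (limma adjusted p = 0.414), all lower with ITGB4 siRNA. These 3 of 42 genes stand beside 10.9% of 12866 tested genes at an unadjusted p under 0.05 in the same fit, and 0 of the 42 passed the adjusted threshold.

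Subunits of other complexes also differed in level over the 6 libraries. The ratio of the highest to the lowest subunit was 6.46 for GINS with the authors' gene length and 3.60 with the principal transcript. It was 2.23 and 1.41 for RFC2 to RFC5, and 6.97 and 8.28 for POLD1 to POLD3 of polymerase δ. For polymerase α with primase it was 6.21 and 4.69, for POLE and POLE2 2.16 and 2.75, and for RPA 3.19 and 2.52. Subunits were closer for RRM1 and RRM2 (1.23 and 1.41), CHAF1A and CHAF1B (1.42 and 1.61) and ORC1, ORC2 and ORC6 (1.40 and 1.89).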
